A study of Mus musculus with 6 samples.

Results

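Oxidative phosphorylation was followed through its nuclear-encoded subunits, taken by gene symbol as the Nduf, Uqcr, Atp5 and Cox4 to Cox8 families with Sdha, Sdhb, Sdhc, Sdhd, Cyc1 and Cycs. This gave 92 genes of the 18193 that had a probe set with 1 gene symbol. Each gene was represented by its brightest probe set, and no measured difference entered the choice of probe set. The gene families themselves were chosen with earlier results of these data known. The genes comprised 35 of complex I, 4 of complex II, 9 of complex III, cytochrome c, 17 of complex IV, 17 of complex V and 9 assembly or associated factors. The Cox7a2l and Ndufaf genes, whose products help to build or join complexes and are not subunits, formed the last set. Ndufa4, named for complex I but assigned to complex IV, was counted there. Its relative Ndufa4l2 was left in complex I by its symbol and was not tested.

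The genes were measured on 6 microarrays hybridised with RNA of LSK cells, the bone marrow fraction without lineage markers and with Sca-1 and c-Kit, which holds blood stem cells and multipotent progenitors. All mice were F1 animals of a cross between C57BL/6 and FVB/n, and marrow was depleted of lineage-positive cells before the sort. The 3 Ercc1-deficient samples had the genotype -/d, a null allele together with a truncated one; Ercc1 forms part of an endonuclease of DNA repair. Their 3 Ercc1-proficient litter mates were +/+ in litters 1 and 2 and +/d in litter 3. Litter 1 was 22 weeks old and litters 2 and 3 were 20 weeks old. The labels do not say whether a sample was 1 mouse or a pool, so p-values cannot be read as a spread between mice. With litter as a block, p-values and standard errors rest on differences within the litters of these samples. Their variances were drawn toward a trend over all probe sets tested. In bulk RNA, fewer cells of a type and less RNA per cell cannot be told apart.

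In the respiratory chain, complexes I and II pass electrons from NADH and succinate to ubiquinone, complex III passes them to cytochrome c, and complex IV passes them to oxygen. Complexes I, III and IV pump protons, and complex V uses the proton gradient to make ATP. Quiescent blood stem cells are known for a low reliance on this pathway, which their progeny use more as they divide and mature.

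Promoter sequences from RefSeq (assembly GRCm38.p6) are shown for the gene of smallest p in each complex that had an entry, and for Cycs. A link between these sequences and the members' levels was not tested. Each line runs 5′ to 3′ from 150 bases before to 30 bases after the start of the gene. Capitals mark a match to the NRF1 motif CGCATGCG or the ETS family motif CCGGAAG on either strand.
Ndufv3 (chr17:31519965-31520144, plus strand): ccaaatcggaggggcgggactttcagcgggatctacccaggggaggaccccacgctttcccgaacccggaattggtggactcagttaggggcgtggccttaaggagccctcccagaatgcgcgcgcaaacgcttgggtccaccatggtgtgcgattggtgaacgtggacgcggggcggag
Sdhd (chr9:50603820-50603999, minus strand): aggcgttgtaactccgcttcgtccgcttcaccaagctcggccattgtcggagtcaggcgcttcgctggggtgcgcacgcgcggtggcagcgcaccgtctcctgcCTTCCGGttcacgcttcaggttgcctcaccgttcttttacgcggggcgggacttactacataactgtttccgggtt
Uqcr11 (chr10:80406792-80406971, minus strand): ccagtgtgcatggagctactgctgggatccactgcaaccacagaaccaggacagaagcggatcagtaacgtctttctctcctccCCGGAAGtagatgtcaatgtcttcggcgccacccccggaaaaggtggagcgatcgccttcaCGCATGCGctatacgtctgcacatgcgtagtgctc
Cycs (chr6:50566540-50566719, minus strand): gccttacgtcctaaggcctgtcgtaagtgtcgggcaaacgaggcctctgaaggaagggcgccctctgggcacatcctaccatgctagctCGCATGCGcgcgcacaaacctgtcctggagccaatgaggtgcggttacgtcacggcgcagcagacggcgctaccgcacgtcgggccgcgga
Cox5a (chr9:57521082-57521261, plus strand): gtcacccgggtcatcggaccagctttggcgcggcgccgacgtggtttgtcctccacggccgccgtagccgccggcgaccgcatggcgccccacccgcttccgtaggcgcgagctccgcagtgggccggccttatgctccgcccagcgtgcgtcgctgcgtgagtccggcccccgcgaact
Atp5l (chr9:44920713-44920892, minus strand): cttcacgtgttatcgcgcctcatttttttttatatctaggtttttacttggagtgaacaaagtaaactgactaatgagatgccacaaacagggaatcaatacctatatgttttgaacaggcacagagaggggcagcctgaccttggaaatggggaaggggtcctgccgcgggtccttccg
Ndufv3, Cox5a and Atp5l held none of these motifs in the window shown. In the longer window counted below, Atp5l held both motifs, and Ndufv3 and Cox5a held neither. Uqcr11 held both, Sdhd held the ETS motif on the reverse strand, and Cycs held the NRF1 motif. Of the 92 members, 75 had a promoter in the table, read from 250 bases before to 50 bases after the start. NRF1, a transcription factor known for controlling respiratory chain genes, had its motif in 10 of the 75 (13.3%), against 1.91% of 27025 genes and 2.54% of 17491 coding genes. The ETS motif, which GABP binds, was in 18 of 75 (24.0%), against 9.12% of all and 11.9% of coding genes. The YY1 motif AAGATGGCG was in 6 of 75 (8.0%), against 1.49% of all and 1.94% of coding genes. The 3 motifs were searched on both strands, and a match describes the letters only.

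Of the 92 members, 87 passed the filter on low signal and were tested. Ndufa4l2, Ndufb4 and Cox8b were at the floor of 30 on all 6 arrays. Cox7a1 and Cox7b2 were at the floor on all arrays but the proficient one of litter 2, where their signals were 35.4 and 38.0. Cox7a1 and Cox8b belong to isoforms known from heart and skeletal muscle, Cox7b2 is a testis isoform, and Ndufa4l2 is a hypoxia-inducible relative of Ndufa4. Between 52.3% and 58.6% of all signals on an array were at the floor. The brightest Ercc1 probe set had signals of 79.9, 34.5 and 44.9 on the deficient arrays of litters 1, 2 and 3 and of 128, 244 and 176 on the proficient ones (limma, adjusted p = 0.0138). Its place relative to the disrupted alleles is not stated, so it is no full check of the genotypes.

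No member passed the test for a difference between deficient and proficient cells (limma with litter as a block, adjusted p under 0.05), beside 0.835% of the 22519 probe sets tested. Those calls over all probe sets, numbering 188, fell to 0 without the block, without the filter on low signal, and with litter 1, 2 or 3 left out. The lowest adjusted p of a member was 0.129, for Ndufv3. At an unadjusted p under 0.05 there were 9 of 87 members (10.3%) against 11.5% of all probe sets: Ndufv3, Ndufs1, Ndufb8, Ndufab1, Sdhd, Uqcrq, Uqcr11, Atp5mpl and Cycs. The members' share was therefore near the background. Without litter as a block the number was 0. Leaving out litter 3 gave 30, leaving out litter 2 gave 2, and leaving out litter 1 gave 3. The share of all probe sets was not counted for these fits, so the numbers cannot be read as particular to the members.

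The members' average differences lay mostly on the positive side. The log2 difference, deficient minus proficient on the log2(signal + 30) scale, was above 0 for 72 of 87 members (82.8%), against 46% of all probe sets tested. Its median was 0.28 over the members and -0.03 over all probe sets. Bright probe sets as a whole leaned the same way. Of the 4504 brightest probe sets, which held 72 of the members, 61.7% were above 0, with a median of 0.09. Leaving out litter 1 lowered the members' median to 0.08, with 58 of 87 above 0.

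That average joined litters that differed. In litter 1 the median log2 difference over the members was 0.65 and 78 of 87 were higher in the deficient array. In litter 2 it was 0.30 with 69 higher, and in litter 3 it was -0.14 with 21 higher. The medians over all probe sets were 0.00, -0.02 and 0.00 in litters 1, 2 and 3. Across the members, the differences of litters 1 and 2 correlated with Pearson's r = 0.45, those of litters 1 and 3 with 0.08 and those of litters 2 and 3 with -0.15. These values describe 87 genes read on the same arrays, which are not independent.

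**Figure D1:**
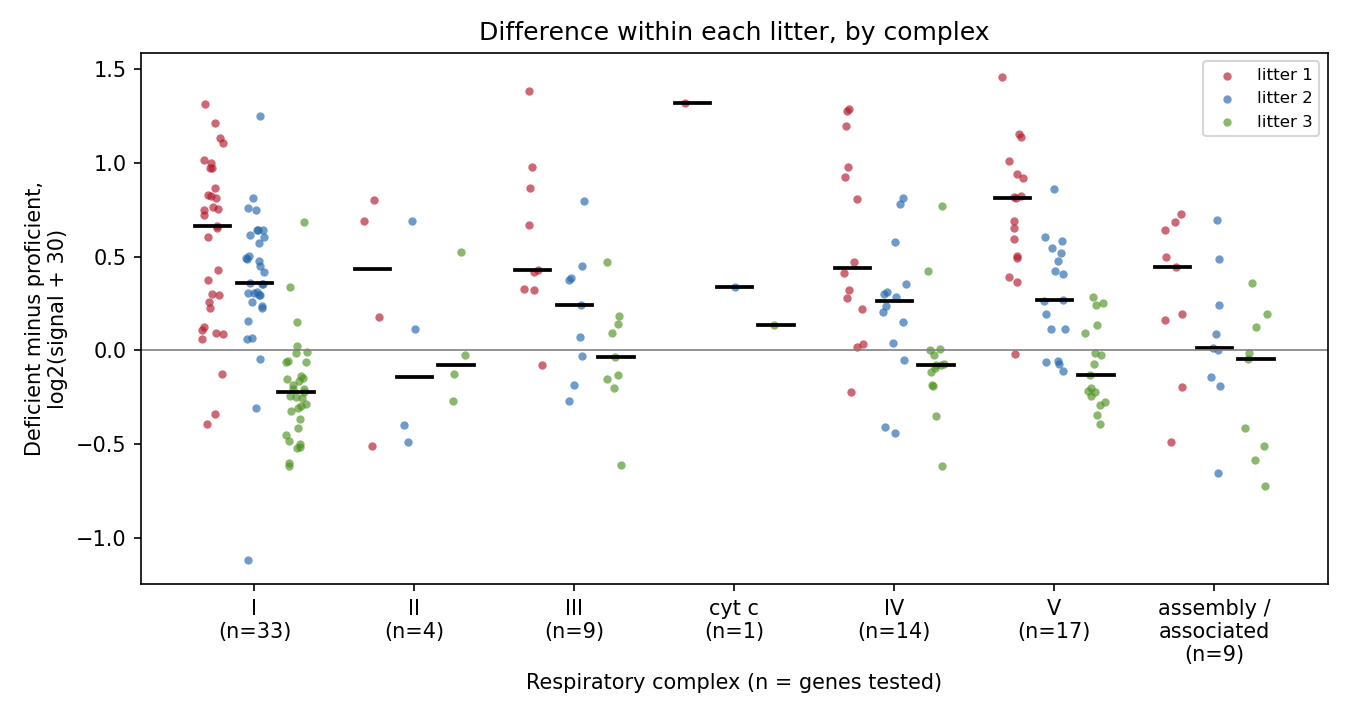
Log2 difference between the deficient and the proficient array of each litter, for each tested member, by complex. Each point is a gene and the bar marks the median of its set. The medians over all 87 members were 0.65, 0.30 and -0.14 in litters 1, 2 and 3.

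Members with the same direction in every litter were few. The deficient array was the higher one in all 3 litters for 12 members (13.8%; 11.3% of all probe sets): Ndufv3, Ndufb1, Ndufs3, Sdhd, Uqcrq, Uqcr11, Uqcrc2, Cox6c, Atp5g1, Atp5g3, Ndufaf6 and Cycs. It was the lower one in all 3 litters for Ndufs1, Sdhc and Uqcrfs1 (3.45% of the members; 17% of all probe sets). Groups did not overlap for 1 member, Sdhd, higher in all deficient arrays (1.15%; 2.3% of all probe sets). No member was lower without overlap, beside 4.89% of all probe sets.

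Complex I, the NADH dehydrogenase, had 33 tested members with a median log2 difference of 0.29, of which 27 were above 0. Its median was 0.66, 0.36 and -0.22 in litters 1, 2 and 3. The 6 core subunits measured, most of which carry flavin or iron-sulfur clusters, had a median of 0.27, and the 27 accessory subunits 0.30. The core medians were 0.36, 0.49 and -0.27 in litters 1, 2 and 3, and the accessory medians 0.75, 0.35 and -0.21. The difference between these sets was not tested.

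Ndufv3, an accessory subunit of the NADH-oxidising module, had signals of 879, 2596 and 1324 on the deficient arrays of litters 1, 2 and 3 and of 420, 1693 and 813 on the proficient arrays. The deficient array was the brighter one of every litter, while the groups overlapped because litter 2 was bright in both. The means were 1600 ± 891 and 975 ± 652 (SD, n = 3 each), for a log2 difference of 0.77 (standard error 0.22, adjusted p = 0.129).

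Ndufs1, the largest core subunit and carrier of several iron-sulfur clusters, lay on the other side. Its signals were 258, 75.6 and 124 in deficient and 348, 199 and 204 in proficient cells. The deficient array was the dimmer one in every litter, and the litters' differences were -0.39, -1.12 and -0.60. The log2 difference of -0.70 (standard error 0.24, adjusted p = 0.211) was the lowest of all 87 members. The next lowest core subunit, Ndufs7, had -0.05.

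Of the other core subunits, Ndufv2, an iron-sulfur protein of the same module, had signals of 2197, 7192 and 2949 in deficient and 1104, 4239 and 3527 in proficient cells. It was higher in litters 1 and 2 and lower in litter 3, the order seen for most of complex I (log2 difference 0.49, adjusted p = 0.499). Ndufv1, which binds NADH, had a log2 difference of 0.29 and Ndufs8 also 0.29, both with this order. Ndufs3 had 0.25 and was higher in every litter, although by little in litters 1 and 3, with signals of 336 against 314 and 729 against 716. Ndufb8, an accessory subunit of the membrane arm, had signals of 740, 4887 and 2197 in deficient and 320, 3119 and 2297 in proficient cells (log2 difference 0.57, adjusted p = 0.368). Ndufab1, the mitochondrial acyl carrier protein, had 0.56.

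Complex II, succinate dehydrogenase, also serves the Krebs cycle, and its 4 genes differed among themselves. Their median log2 difference was 0.05, with 2 of 4 above 0. Sdhd, a membrane anchor, had signals of 337, 295 and 304 in deficient and 198, 172 and 203 in proficient cells. It was the member with separate groups, at a similar level in all litters. The means were 312 ± 22.1 and 191 ± 16.7 (SD, n = 3 each), with a log2 difference of 0.63 (standard error 0.22, adjusted p = 0.242). A second Sdhd probe set had differences of 1.26, 0.40 and -0.42 in litters 1, 2 and 3, so litter 3 did not have the same sign in both probe sets.

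Sdhc, the other anchor, had signals of 87.1, 191 and 249 in deficient and 137, 262 and 275 in proficient cells, lower in every litter (log2 difference -0.35, adjusted p = 0.606). Its second, dimmer probe set was higher in every litter, with signals of 110, 81.5 and 107 against 76.7, 59.6 and 69.6 (log2 difference 0.39, adjusted p = 0.548). The probe sets of this gene therefore gave opposite directions. Sdha, the flavoprotein, had 859, 589 and 675 in deficient and 757, 838 and 688 in proficient cells, with no common direction (log2 difference -0.11). A second Sdha probe set was lower in every litter, with 433, 398 and 734 against 690, 439 and 924 (log2 difference -0.36, adjusted p = 0.566). Sdhb, the iron-sulfur subunit, had 718, 1923 and 1086 against 399, 1778 and 1315 (log2 difference 0.21).

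Complex III, the cytochrome bc1 complex, had 9 members with a median of 0.26 and 8 of 9 above 0. The 5 small subunits had a median of 0.36, the 2 core proteins Uqcrc1 and Uqcrc2 0.28, and the electron carriers Cyc1 and Uqcrfs1 -0.08. Uqcr11, a small subunit, had signals of 828, 4670 and 2622 in deficient and 298, 3410 and 2461 in proficient cells. Its difference was large in litter 1 (1.38), smaller in litter 2 (0.45) and near 0 in litter 3 (0.09), for a log2 difference of 0.64 (standard error 0.25, adjusted p = 0.319). Uqcrq, the ubiquinone-binding small subunit, had 244, 1764 and 636 against 120, 1004 and 573 (log2 difference 0.60, adjusted p = 0.291).

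The electron carriers of complex III lay lower. Uqcrfs1, the Rieske iron-sulfur protein, had signals of 222, 711 and 501 in deficient and 236, 814 and 580 in proficient cells, below its litter mate each time by a small margin (log2 difference -0.15, adjusted p = 0.813). Cyc1, cytochrome c1, had 681, 829 and 1216 against 499, 1004 and 1354, a log2 difference of 0.00.

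Cycs encodes cytochrome c, which carries electrons to complex IV and triggers the apoptosome when released. Its brightest probe set had signals of 1188, 1878 and 1173 in deficient and 458, 1478 and 1064 in proficient cells. The deficient array was higher in every litter, mostly so in litter 1 (log2 difference 0.60, standard error 0.25, adjusted p = 0.344). Another Cycs probe set, singled out after its values were seen, had 220, 1072 and 589 in deficient and 42.9, 291 and 355 in proficient cells. Its ratios of deficient to proficient signal were 5.12, 3.68 and 1.66 in litters 1, 2 and 3. The fit gave it a log2 difference of 1.41 (standard error 0.25, adjusted p = 0.00492 with litter as a block and 0.9998 without it). The adjusted p was 0.718, 0.687 and 0.293 with litter 1, 2 or 3 left out, and 0.942 with no filter on low signal. Another had a log2 difference of 0.54 (adjusted p = 0.392), and the fourth was at the floor on all arrays. Their positions along the transcript are not known here, and cytochrome c has many processed pseudogene copies in mouse.

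**Figure D2:**
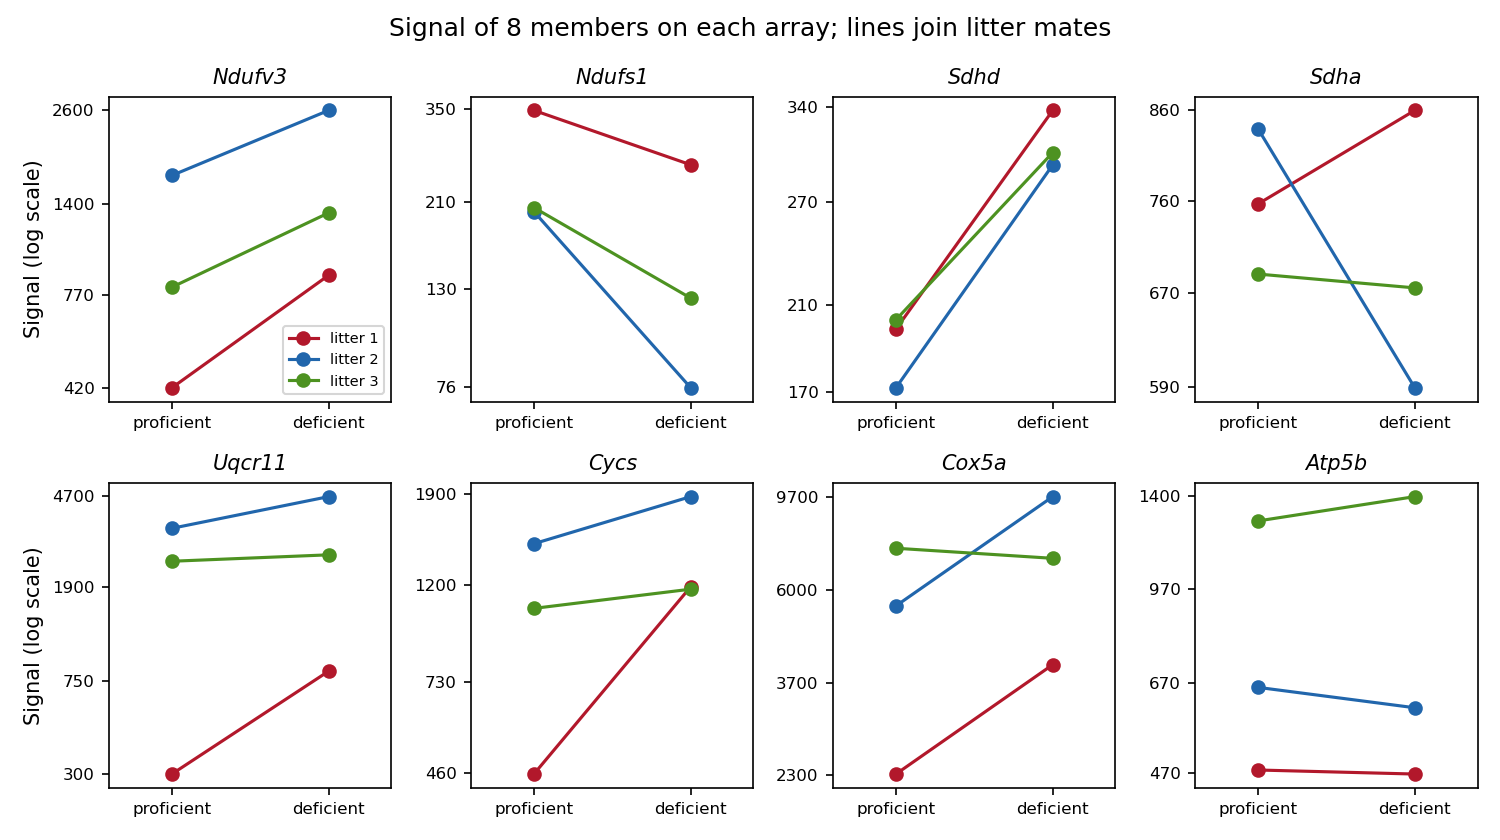
Signal of 8 members on each array, on a log axis whose range differs between panels; each line joins the litter mates of one litter. Ndufv3, Sdhd, Uqcr11 and Cycs slope up in all 3 litters and Ndufs1 down in all 3, while Sdha, Cox5a and Atp5b do not share a direction.

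Complex IV, cytochrome c oxidase, had 14 tested members with a median of 0.20 and 12 of 14 above 0. The 10 without the tissue-restricted isoforms were all above 0, with a median of 0.37. Their medians in litters 1, 2 and 3 were 0.87, 0.29 and -0.10. Cox5a, a matrix-side subunit, had signals of 4072, 9700 and 7053 in deficient and 2314, 5516 and 7429 in proficient cells, higher in litters 1 and 2 only (log2 difference 0.51, adjusted p = 0.483). Cox6c was higher in every litter, with 6754, 12026 and 7517 against 2925, 10185 and 7479, the last pair being nearly equal (log2 difference 0.48, adjusted p = 0.548).

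Several subunits of complex IV have a general form and forms restricted to certain tissues. Levels of different probe sets are not comparable in amount, so each form is given by its own values. Cox4i1, the general form of the first nuclear subunit, had signals of 2070, 9101 and 5982 in deficient and 1649, 7329 and 6835 in proficient cells (log2 difference 0.15). Cox4i2, the lung and hypoxia form, had 39.8, 66.2 and 30 against 30, 34.5 and 31.2 (log2 difference 0.26, adjusted p = 0.581), all close to the floor. Cox7a2 had 6588, 18416 and 12566 against 2679, 14422 and 12570 (log2 difference 0.55, adjusted p = 0.500).

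Among the remaining pairs, Cox6a1 had a log2 difference of 0.38 and its muscle form Cox6a2 -0.07, with Cox6a2 signals of 44.3 to 95.1 in deficient and 56.7 to 125 in proficient cells. Cox6b1 had 0.36 and the testis form Cox6b2 -0.01, the latter at 30.8, 299 and 159 against 30, 291 and 171. Cox8a had 0.11 and Cox8c 0.12. Ndufa4 had 542, 5130 and 1872 in deficient and 400, 4443 and 2396 in proficient cells (log2 difference 0.09). None of these differences passed the test.

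Complex V, the ATP synthase, was the complex in which all 17 members had a log2 difference above 0, although in Atp5b it was 0.00 to 2 decimals and turned to -0.02 under quantile normalization. Its median was 0.36, and by litter 0.81, 0.27 and -0.13. By part of the enzyme, the median was 0.14 over the 5 subunits of the catalytic F1 head, 0.34 over the 3 genes of the proton-carrying c ring, 0.30 over the 4 of the peripheral stalk and 0.46 over the 5 other membrane subunits. The differences between these sets were not tested.

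Atp5b, the catalytic beta subunit, had signals of 469, 608 and 1394 in deficient and 476, 659 and 1267 in proficient cells, almost equal within each litter (adjusted p = 0.999). Atp5mpl, a small membrane subunit, had 800, 2733 and 1248 against 346, 1900 and 1314 (log2 difference 0.53, adjusted p = 0.409). Atp5l, subunit g, had 187, 1163 and 480 against 93.1, 625 and 575 (log2 difference 0.48, adjusted p = 0.469). Both were higher in litters 1 and 2 and lower in litter 3.

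The c ring subunit is encoded by 3 genes that give the same mature protein. Atp5g3 had signals of 3471, 6762 and 5297 in deficient and 1818, 5637 and 4347 in proficient cells, higher in every litter (log2 difference 0.49, adjusted p = 0.481). Atp5g1 had 645, 1779 and 1411 against 354, 1644 and 1322, also higher in every litter (log2 difference 0.34). Atp5g2 had 327, 1745 and 848 against 248, 1821 and 932 and was higher in litter 1 only (log2 difference 0.06).

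The 9 assembly and associated genes had a median of 0.02 with 5 of 9 above 0. Ndufaf6, a complex I assembly factor, had signals of 87.8, 123 and 115 in deficient and 45.5, 78.8 and 103 in proficient cells, higher in every litter (log2 difference 0.42, adjusted p = 0.527). Ndufaf3 had 0.29. Cox7a2l, a factor that joins complexes III and IV, had 1341, 2037 and 1698 against 1543, 2022 and 2565 (log2 difference -0.26, adjusted p = 0.721).

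**Figure D3:**
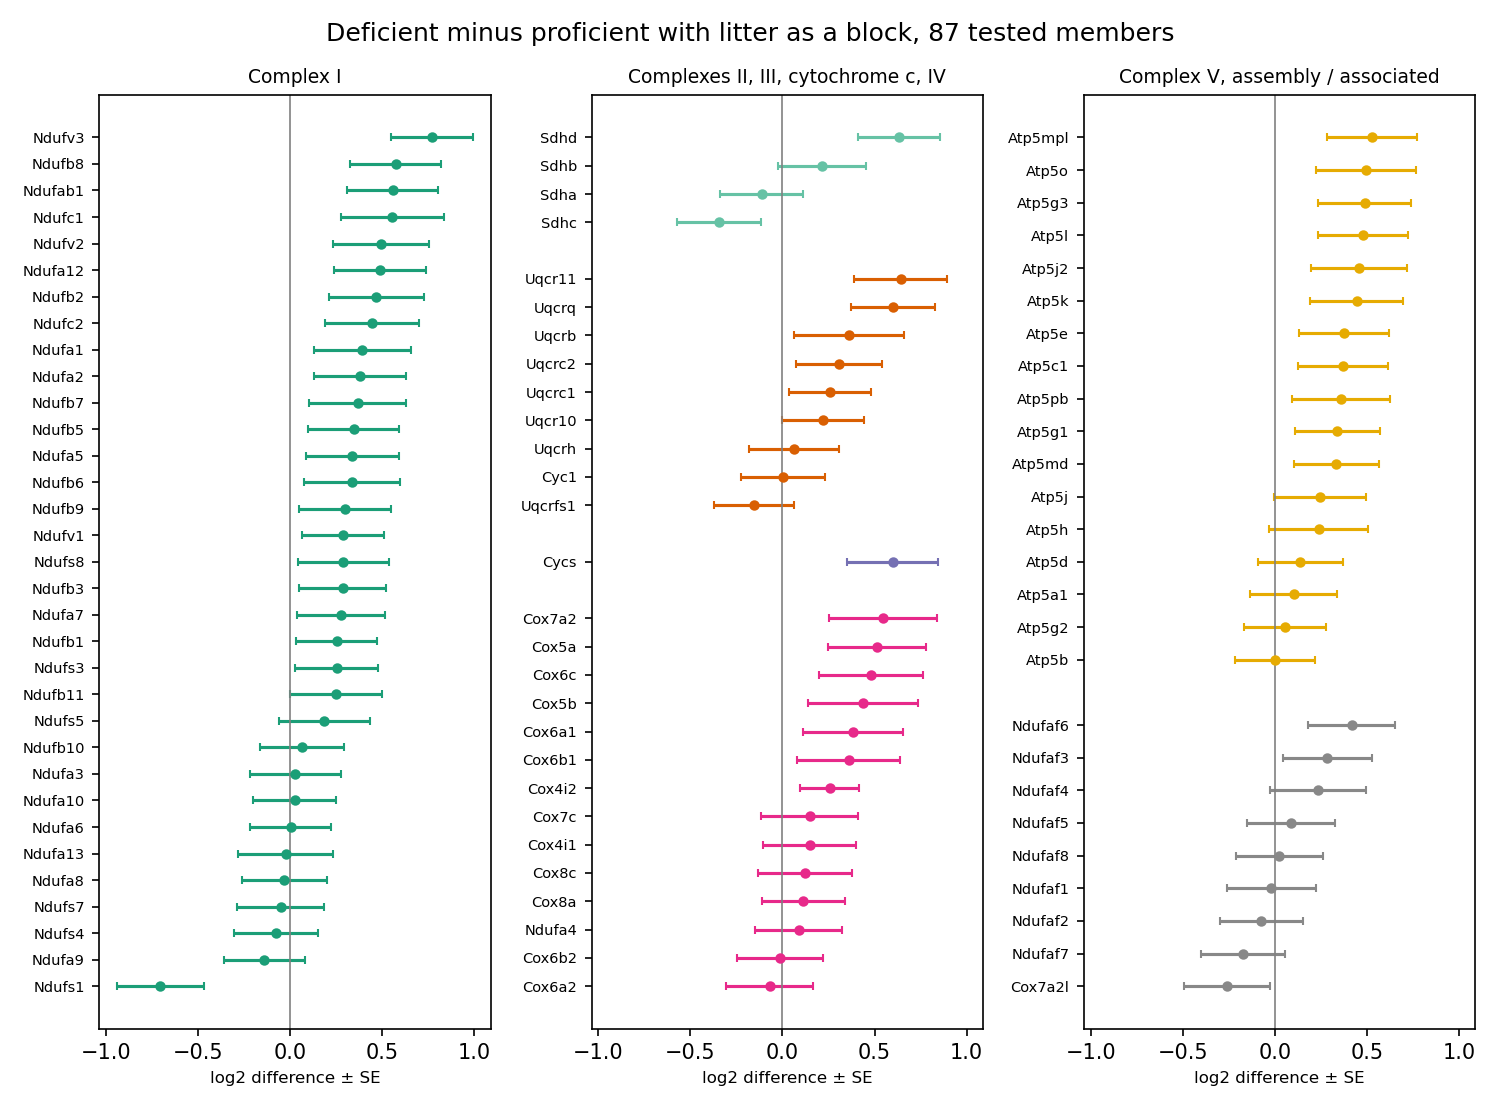
Log2 difference between deficient and proficient cells for the 87 tested members, by complex; points are the fitted differences with litter as a block and bars the standard error. They span -0.70 (Ndufs1) to 0.77 (Ndufv3), and no gene passed an adjusted p of 0.05.

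Other probe sets of the same genes gave a second reading. Among 74 further tested probe sets of 48 members, 60 had the sign of the brightest one and 14 the opposite sign, and the median log2 difference was 0.27. The Cycs probe set given above was the 1 that passed.

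The level of the members was lower in litter 1 than in the other litters. Both arrays of litter 1 were below all 4 other arrays for 73 of 87 members, against 18.1% of all probe sets tested. Among proficient arrays the median log2 difference of the members was 1.91 between litters 2 and 1 and 1.65 between litters 3 and 1. Among deficient arrays these values were 1.53 and 0.93. Between litters 2 and 3 the median was smaller, 0.23 among proficient and 0.74 among deficient arrays. For the comparisons with litter 1, the medians over all probe sets were 0.00, and over the 4504 brightest probe sets they were between 0.13 and 0.26. Each litter's array is a single sample, so these differences have no replicate check.

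The level of litter 1 was not equally low in all sets. The median difference between the proficient arrays of litters 2 and 1 was 2.14 over the accessory subunits of complex I, 1.72 over its core subunits, 1.96 over complex IV and 2.13 over complex V. In complex III it was 2.47 over the small subunits and 1.32 over the electron carriers and core proteins. In complex II it was 0.47, and among the assembly genes 0.53. Exceptions to the low level of litter 1 were Ndufs1, Ndufv3, Sdha, Sdhd, Uqcrc2, Cycs, Atp5a1, Cox4i2, Cox7c, Cox8c and 4 Ndufaf genes.

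**Figure D4:**
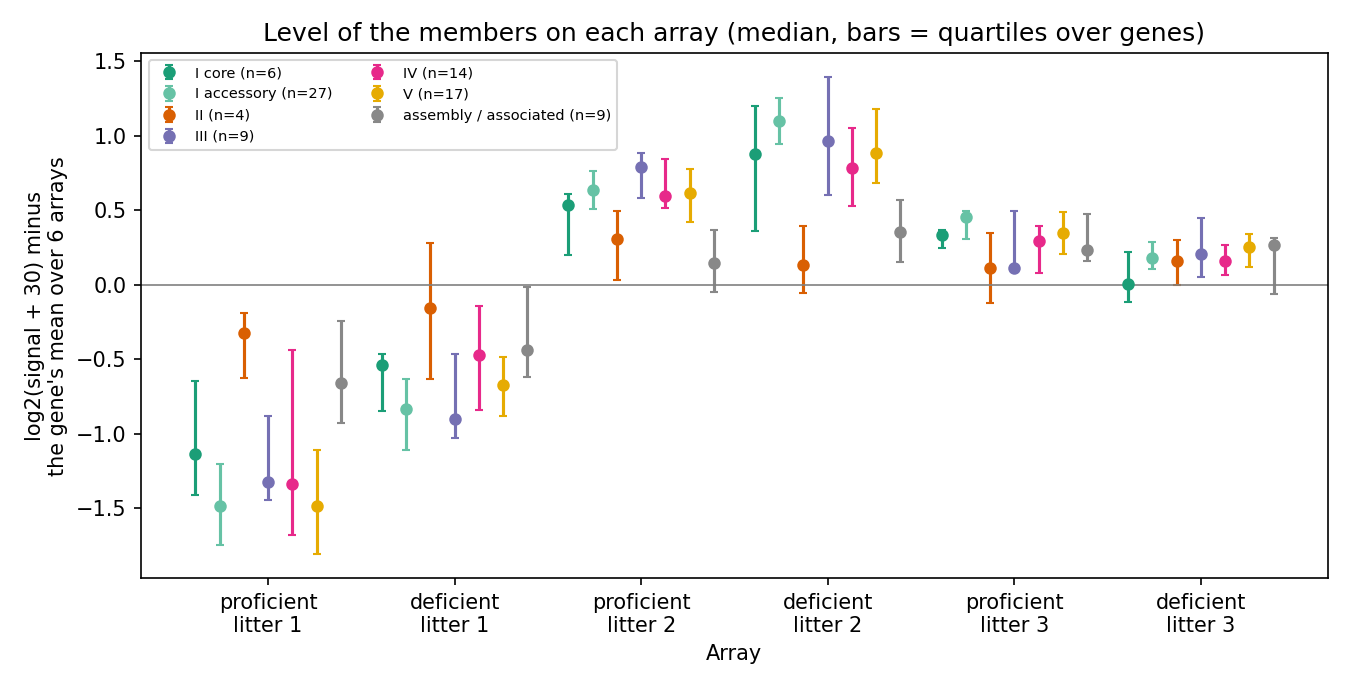
Level of the members on each array as log2(signal + 30) minus the gene's mean over the 6 arrays; points are medians over the genes of a set and bars run from the lower to the upper quartile. The medians of the accessory subunits of complex I go from -1.49 and -0.83 on the proficient and deficient arrays of litter 1 to 0.64 and 1.10 in litter 2, while complex II stays between -0.33 and 0.31.

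Several technical and biological measures also differed between the arrays. The signal ratio of the 3′ to the 5′ Actb control, on the log2 scale, was 4.97, 4.27 and 3.30 in deficient and 4.05, 4.43 and 3.70 in proficient arrays of litters 1, 2 and 3. For Gapdh it was 4.71, 2.43 and 2.30 against 3.64, 2.99 and 2.73. Its deficient minus proficient difference was 0.92, -0.16 and -0.41 for Actb and 1.07, -0.55 and -0.43 for Gapdh. Both were highest in litter 1, where the members' difference was also highest. Between the other litters, the Actb difference and the members' median difference were lower in litter 3, and the Gapdh difference was lower in litter 2. Among deficient arrays both ratios were highest in litter 1. Among proficient arrays the Gapdh ratio was highest in litter 1 and the Actb ratio in litter 2. The 3′ Gapdh signal was 1173, 2570 and 3855 in deficient and 790, 2245 and 2348 in proficient arrays, lowest in litter 1. The part of RNA quality in the members' values was not tested.

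Litter 1 also differed in age and in sex-linked genes. Xist, the RNA of the inactive X chromosome, had signals of 114, 14652 and 9990 in deficient and 166, 13783 and 5087 in proficient arrays, lowest in litter 1. The Y-linked Uty had 124, 30 and 30 against 82.7, 30 and 30. Kdm5d, also Y-linked, had 239, 42.1 and 65.8 against 201, 48.9 and 30, and Eif2s3y had 452, 76.8 and 169 against 828, 30 and 30. All 3 Y-linked genes were highest in litter 1, and Eif2s3y was also above the floor on the deficient but not the proficient arrays of litters 2 and 3. Age, the Xist level and the members' level separate litter 1 from the other two and cannot be told apart.

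Some markers of other cells moved with genotype. All 11 tested genes of 13 granulocyte and macrophage markers with a probe set had a log2 difference above 0, and 6 passed as higher in deficient cells (Camp, Chil3, Fcgr3, Ngp, S100a8 and S100a9). Their summed signal was 6173 to 88941 in deficient and 775 to 19413 in proficient arrays, and Itgam and Mmp8 were at the floor on all arrays. Csf1r and Adgre1, markers of macrophages, were close to 0 (log2 differences 0.03 and 0.12), and each was lower in 1 litter. The list's median log2 differences were 0.76, 1.16 and 1.95 in litters 1, 2 and 3. Among the genes that passed, Camp (2.38, 2.50 and 3.38), Chil3 (2.22, 2.43 and 3.68) and Ngp (1.45, 2.78 and 3.94) rose in that order. S100a8 (3.84, 2.44 and 1.53) and S100a9 (3.85, 2.48 and 1.95) fell, and Fcgr3 had 0.76, 1.16 and 1.07. Of 8 tested genes of early myeloid cells, 7 were above 0 and 3 passed as higher (Ctsg, Ms4a3 and Prtn3), with summed signals of 14851 to 41474 against 4256 to 20460. The remaining gene, Csf3r, was lower in every litter (log2 difference -0.42, adjusted p = 0.512). The median log2 differences of the 8 genes were 1.12, 0.97 and 0.77 in litters 1, 2 and 3, and the order of the litters differed between genes. Of 6 genes of the sort gate and of stem cells, Flt3 and Procr passed as lower, and Kit had 125, 95.8 and 92.2 in deficient against 231, 123 and 151 in proficient arrays (adjusted p = 0.380). In the other direction, Cd48 had 465, 581 and 417 against 180, 341 and 325 (log2 difference 0.76, adjusted p = 0.153), and Slamf1 had a log2 difference of 0.36. Sca-1 (Ly6a) was not read here. Of 12 markers of B, T and natural killer cells with a probe set, 4 were at the floor on all arrays and none passed, and none of the erythroid, platelet or stromal markers passed. Nkg7 of the first list was higher in every litter (log2 difference 0.90, adjusted p = 0.0565), as was Pf4 of the platelet list (0.84, adjusted p = 0.174). Among tested genes, 5 of 7 in the first list, 2 of 6 platelet and 0 of 5 erythroid markers were above 0. The part of cell makeup in the members' values was not tested.

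Other genes of mitochondrial energy metabolism were read from lists outside the members. In the Krebs cycle and pyruvate dehydrogenase list, 11 of 16 tested genes were above 0, with a median of 0.13, and none passed. Of 35 tested assembly factors, 16 were above 0, with a median of -0.03, and none passed. Sco2, a copper chaperone of complex IV, was at 45.9 ± 12.1 (SD, n = 3) in deficient cells against 79.8 ± 15.7 (SD, n = 3) and was lower in every litter (log2 difference -0.53, adjusted p = 0.303). Carriers and porins had 7 of 8 above 0 with a median of 0.25, and Slc25a5, an ADP/ATP carrier, had 0.44, higher in every litter.

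Of the regulators of mitochondrial gene expression, 7 of 20 were above 0, beside 46% of all probe sets tested, with a median of -0.11 beside -0.03, and none passed. Nrf1, whose motif was counted in the promoters, had signals of 139, 133 and 140 in deficient and 183, 160 and 163 in proficient cells (log2 difference -0.25, adjusted p = 0.732). Tfam, the packaging and transcription factor of mitochondrial DNA, had a log2 difference of -0.17. Of the subunits encoded in mitochondrial DNA, only ND5 was read. It had 2073, 3231 and 1515 against 1655, 3632 and 2129, higher in litter 1 and lower in litters 2 and 3 (log2 difference -0.11).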

How the data were processed

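RNA of 6 sorted samples went through 2 rounds of linear amplification and was, per the labels' protocols, read on Affymetrix Mouse Genome 430 2.0 arrays. The authors deposited linear signal intensities from MAS5, as the submitters' processing notes say. No value lies below 30; neither the scaling nor the origin of this floor is stated. Amplification favours 3′ ends, and the floor hides differences among weak genes.

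Intensities were analysed as log2(signal + 30), which understates changes of weak genes. Controls (64 probe sets) were dropped. Of 45037 others, the 22519 whose mean reached the median entered limma 3.58.1 (R 4.3.3; lmFit, eBayes with a variance trend), with group and litter as terms and Benjamini-Hochberg adjustment at 0.05. Equal-numbered arrays are litter mates by their labels, so they are paired; their deviations from the group means correlated with r = 0.77, 0.67 and 0.46. The fit was tested on simulated data, with changes placed in brighter probe sets and noise independent between probe sets. It found 79% of 2-fold and 100% of 4-fold changes, with 15 false among 194 calls. Smaller changes were not simulated. Names came from the platform annotation of 2016. The 932 probe sets with several symbols were not used, so 8 genes of these families are not reported.

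Members and gene lists were chosen with earlier results of these data known. Genes named in full were the 3 of smallest p, the lowest and the highest in each complex, complex II, Cyc1, Cycs, core complex I and the isoform sets. With 3 arrays a group, their number limits the precision. Alternatives were the fit without litter, quantile normalization, median centring, other pseudocounts and filters, no variance trend, a litter left out, gene means over probe sets, and Ndufa4 in complex I.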

Additional observations from a re-analysis of the deposited data

How the results depend on the processing

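No member passed under any setting except median centring of the arrays, under which 1 did (Ndufv3, log2 difference 0.86). That setting also moved the median over all probe sets from -0.03 to 0.06. It raised the calls over all probe sets from 188 to 332. The paired analysis was the one reported: without the litter term (no replicate block) 0 members passed and the median over the members was 0.28 as before. The count of members with an unadjusted p under 0.05 was 0 without the block, 22 with median centring and 3 with no filter, against 9. The share of all probe sets under these settings was not counted. No gene of the other mitochondrial lists passed under any setting. The members' median ran from 0.08 without litter 1 to 0.46 without litter 3 and stayed above 0 in all 12 alternatives, as did the medians of complexes I (0.10 to 0.56), III (0.13 to 0.40), IV (0.07 to 0.46) and V (0.09 to 0.55). Those of complex II (-0.17 to 0.17) and of the assembly genes (-0.09 to 0.15) took both signs.

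Of 39 named members, 12 changed sign somewhere, among them Sdhc and Sdhb, with -0.35 and 0.21 as reported. Under quantile normalization these were Atp5b (-0.0163), Cox6b2 (0.00127), Cyc1 (-0.0126) and Ndufa4 (-0.0207). Under median centring they were Cox6a2 (0.0212), Cox6b2 (0.0779) and Ndufs7 (0.0375), with a pseudocount of 100 Cyc1 (-0.0037), and with the mean over the probe sets of a gene Sdhc (0.0221). Leaving out 1 litter gave ranges of -0.0659 to 0.0567 for Atp5b, -0.10 to 0.15 for Atp5g2, -0.31 to 0.10 for Cox6a2, -0.0372 to 0.0282 for Cox6b2, -0.0643 to 0.21 for Cox8a, -0.20 to 0.40 for Cox8c, -0.21 to 0.14 for Cyc1, -0.0724 to 0.31 for Ndufa4, -0.23 to 0.18 for Ndufs7, -0.26 to 0.0755 for Sdha and -0.0792 to 0.46 for Sdhb. The second Cycs probe set had an adjusted p of at most 0.0316 under quantile normalization, median centring, other pseudocounts, the stricter filter and no variance trend. The causes were not tested. Signals near the floor limit Cox4i2, Cox6a2 and Cox8c, whose differences are understated on this scale.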
